A study of Arabidopsis thaliana with 12 samples.

Results

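The comparison described here is that of the lon2-8 atg2-4 double mutant with the atg2-4 single mutant of Arabidopsis thaliana, 3 RNA-seq libraries against 3, across all 26093 genes of the deposited table. It gives the effect of the lon2-8 mutation in seedlings that already lack normal autophagy. The 6 libraries were taken by the column names of the table out of 12, the other 6 being wild-type Col-0 and the lon2-8 single mutant. Every group has the Col-0 ecotype, and both groups compared carry atg2-4, so atg2-4 is the baseline and not the variable. The plants were whole seedlings from nutrient medium in continuous light, with an age of 6 days in the series design and 8 days in the growth protocol, a difference that could not be settled. Each genotype is a single mutant allele or combination in its own line, and no second allele or complemented line was among the samples. Titles and genotype tags contradict each other in the single-mutant records, each giving the other mutant, so the groups rest on the column names. LON2 runs the way these names say, with 12.0, 11.1 and 11.7 FPKM in the lon2-8 columns and means of 22.3 in those of atg2-4 and 25.9 in those of Col-0.

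LON2 is the Lon protease of the peroxisome matrix, where it degrades damaged or surplus matrix proteins and helps to sustain protein import in older seedlings. Autophagy delivers whole organelles and cytoplasm to the vacuole for breakdown, and its selective form for peroxisomes is called pexophagy. ATG2 is a lipid transfer protein that the growing autophagosome membrane needs. In lon2 mutants peroxisomes are known to be removed by autophagy, so a comparison within an autophagy mutant shows the transcripts that respond to lon2-8 when that route is closed. Peroxisomes of seedlings house fatty acid β-oxidation, part of the glyoxylate cycle and the oxidative step of photorespiration.

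The libraries held 14481170 to 18690658 fragments, read back from the FPKM values (fragments scaled to gene length and library size), and 19705 to 19923 genes reached 1 FPKM in a library. Replicates of each group differed by more than counting noise, with a chi-square per degree of freedom of 1.88 to 2.45, pooled over the libraries of a group. Single pairs of replicates were not tested in this way. The summed level of 10 root markers was 1287 to 1371 FPKM in atg2-4 and 1275 to 1361 in the double mutant, and that of 8 leaf markers was 14510 to 15510 and 15427 to 16141. Of the 9 root markers tested, 2 rose and 2 fell, so similar sums can hide opposite changes. Of 9 seed markers, all of them also in the seed list described below, the sum was 8.58 to 11.9 FPKM in atg2-4 and 17.5 to 23.6 in the double mutant, with none at 0. It was 18.5 to 29.2 FPKM in Col-0 and 9.0 to 16.5 in lon2-8, so the double mutant overlapped Col-0, and the libraries of atg2-4 and lon2-8 were below those of the double mutant and Col-0. In whole seedlings, fewer cells of a type and less RNA per cell cannot be told apart.

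LON2 (AT5G47040) had 23.2, 21.9 and 21.7 FPKM in the atg2-4 libraries and 4.45, 4.53 and 5.36 in the double mutant. The groups lay far apart, and the double mutant kept 21.4% of the atg2-4 level (log2 fold change −2.01 ± 0.064 SE, adjusted p = 4.56e-09, limma with Benjamini-Hochberg adjustment over 20662 genes, as for all adjusted p-values that follow). Fold changes are differences of log2(FPKM + 1), and this scale understates them for genes at low levels. In the Col-0 background the fall of LON2 was smaller (−1.09), and the difference between the backgrounds was itself significant (−0.92 ± 0.091, adjusted p = 3.21e-05). ATG2 (AT3G19190) had 6.66, 5.98 and 6.31 FPKM in atg2-4 and 6.41, 6.28 and 7.07 in the double mutant. These ranges overlap, and the difference did not pass the test (0.05 ± 0.061, adjusted p = 0.665). Of the 10 annotated neighbours of LON2, 5 were tested, with log2 changes from −0.14 to 0.03. Only AT5G47030, annotated as an ATP synthase subunit, passed among these 5 (−0.14, adjusted p = 0.0177), a call lost without atg2-4 library 2 or 3 or double mutant library 2 (adjusted p up to 0.0787).

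Of 20662 genes tested, 918 were higher and 917 lower in the double mutant than in atg2-4, or 8.88% in all and 4.44% in either direction. The changes were small. The median absolute log2 change of the called genes was 0.276, with quartiles of 0.20 and 0.395, and 22 genes (0.106%) passed a 2-fold limit, 17 of them higher and 5 lower. The libraries of the 2 groups did not overlap for 1827 of the 1835 called genes, a property that 27.2% of all genes tested had. A lack of overlap, where given below for a called gene, therefore adds little to its call. Leaving out double mutant library 3, double mutant library 2 or atg2-4 library 3 left 1064, 1090 and 1069 called genes. Centring each library on its median gave 1067 higher and 753 lower, so the even split of directions depends on the scaling.

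**Figure D1:**
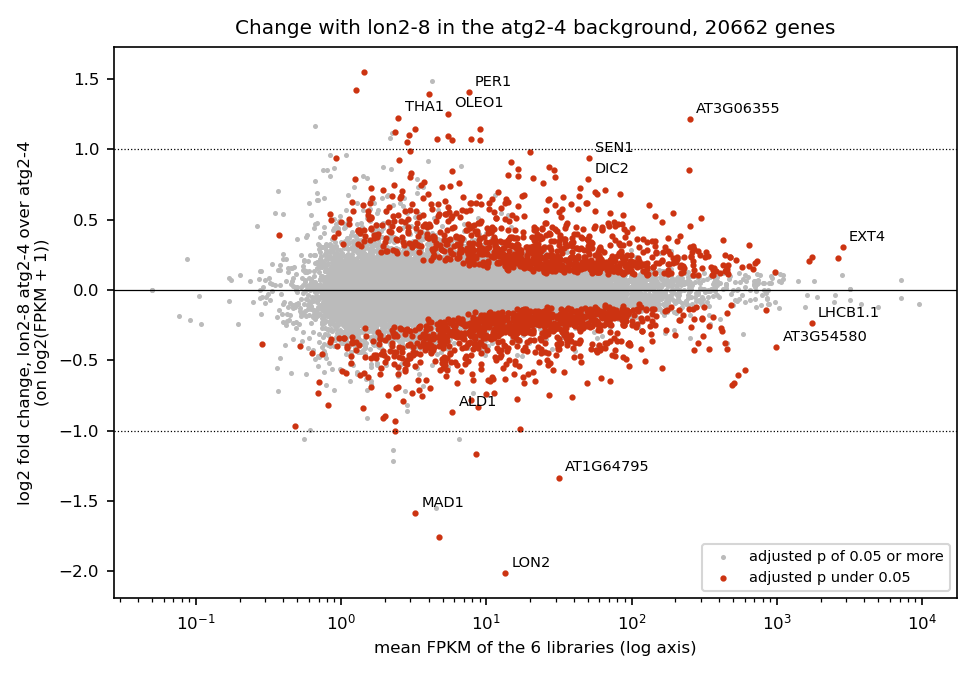
Each point is 1 of 20662 genes, placed by its mean FPKM over the 6 libraries (log axis) and its log2 fold change of the double mutant over atg2-4, red where the adjusted p was under 0.05; the dotted lines mark 2-fold. Most red points lie within the dotted lines, with LON2 lowest at −2.01 and PER1 among the highest at 1.41.

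MAD1 (AT5G49880), a spindle assembly checkpoint gene, fell about as much as LON2, by 4.8-fold against 4.66-fold in mean FPKM. It had 5.51, 5.09 and 5.53 FPKM in atg2-4 and 1.15, 1.08 and 1.14 in the double mutant (−1.59 ± 0.061, adjusted p = 2.6e-08). Its level in lon2-8 was also low at 2.01 ± 0.12 FPKM (SD, n = 3), against 5.10 ± 0.13 in Col-0. MAD1 lies on the same chromosome as LON2 and overlaps the annotated gene CLC-C. Of the 95 tested genes named here, 26 overlap another annotated gene, and as the use of strand is not stated, fragments of such pairs cannot be told apart. AT1G64795, an uncharacterized gene that overlaps the annotated gene ILA, had 46.6, 47.0 and 43.6 FPKM in atg2-4 and 15.5, 17.7 and 19.6 in the double mutant (−1.33 ± 0.10, adjusted p = 9.28e-06). This gene was at 7.35 FPKM in Col-0 and 56.9 in lon2-8, so lon2-8 went with a higher level without atg2-4 and a lower one with it. AT4G33720, which encodes a secreted protein of the PR-1 type, fell from 21.5, 25.1 and 22.5 FPKM to 12.0, 10.5 and 10.8 (−0.99 ± 0.10, adjusted p = 9.15e-05). Its level was near 0 outside the atg2-4 lines, at 0.154 FPKM in Col-0 and 0.248 in lon2-8. The other large falls included the C1-domain gene AT2G37805 (−0.91, adjusted p = 0.00292), the pectin methylesterase inhibitor gene AT5G46950 (−0.90, adjusted p = 4.98e-04), ALD1 and LSU2. The remaining 7 of the 15 largest falls were genes of 0 to 52 fragments per library, 4 of them annotated as non-coding. AT2G37805 and AT5G46950 also rested on few fragments, with 12 to 48 and 10 to 37 per library.

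Apart from a miRNA precursor and a tRNA gene with at most 6 fragments per library, the largest rises were led by genes of the dry seed. PER1, a peroxiredoxin of seeds, had 2.85, 4.63 and 3.73 FPKM in atg2-4 and 10.3, 12.2 and 11.7 in the double mutant (1.41 ± 0.14, adjusted p = 8.13e-05). OLEO1, which encodes the main oleosin of seed oil bodies, had 3.02, 2.53 and 2.73 against 7.60, 10.0 and 6.56 FPKM (1.25 ± 0.18, adjusted p = 9.4e-04). The groups did not overlap for either gene, which was a condition for being named among the largest rises. The means of Col-0 and lon2-8 lay below the double mutant, at 2.06 and 1.3 FPKM for PER1 and 2.27 and 1.24 for OLEO1. OLEO2, the embryo protein gene EM6, the tonoplast aquaporin gene TIP3;1 and the LEA gene AT3G17520 rose by 1.15, 1.07, 1.11 and 1.1. Of 15 tested members of the seed storage and oleosin list, 6 rose and 0 fell, with a median of 0.30 beside −0.02 for all genes. The albumin and cruciferin genes did not move as a block, and members ranged from −0.53 to 1.41. In the Col-0 background 1 member was higher and 4 were lower with lon2-8, where 9.06% of all genes were higher and 14.1% lower. These shares of all genes apply to the Col-0 counts of the other lists too. Of the 15 members, 9 had a positive interaction, where 7.1% of all genes did. These levels are a few FPKM, and the summed seed markers were higher in the double mutant than in atg2-4 but within or just below the range of Col-0, as given above. The part of leftover seed material in these rises was not tested.

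Further large rises were those of THA1, a threonine aldolase that makes glycine, and of PRX52, a cell wall peroxidase. THA1 had 1.09, 1.13 and 1.02 FPKM in atg2-4 and 3.85, 3.88 and 3.88 in the double mutant (1.23 ± 0.095, adjusted p = 1.03e-05). PRX52 had 1.19, 1.45 and 0.74 against 3.65, 3.48 and 3.63 FPKM (1.12 ± 0.13, adjusted p = 2.36e-04). TGG2, a myrosinase that hydrolyses glucosinolates, rose 2.34-fold, from 4.67 ± 0.61 to 10.9 ± 0.93 FPKM (SD, n = 3; 1.07 ± 0.096, adjusted p = 3.19e-05), close to its 10.0 ± 0.83 in Col-0. AT5G59170, a proline-rich extensin-like gene whose repeats may be shared with relatives, had 1.47, 1.7 and 2.09 FPKM against 5.94, 7.69 and 5.19 (1.39 ± 0.19, adjusted p = 7.01e-04). AT3G06355, a non-coding RNA that overlaps an annotated ribosomal RNA gene, had 169, 137 and 149 FPKM in atg2-4 and 357, 347 and 353 in the double mutant (1.21 ± 0.075, adjusted p = 1.87e-06). Col-0 had 288 FPKM of it and lon2-8 had 279, so atg2-4 lay below both and the double mutant above both. AT2G01021 rose by 1.15, with 1 double mutant library at 24.9 FPKM and the others at 7.95 and 7.21. Its call was lost without any single atg2-4 library (adjusted p up to 0.107).

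**Figure D2:**
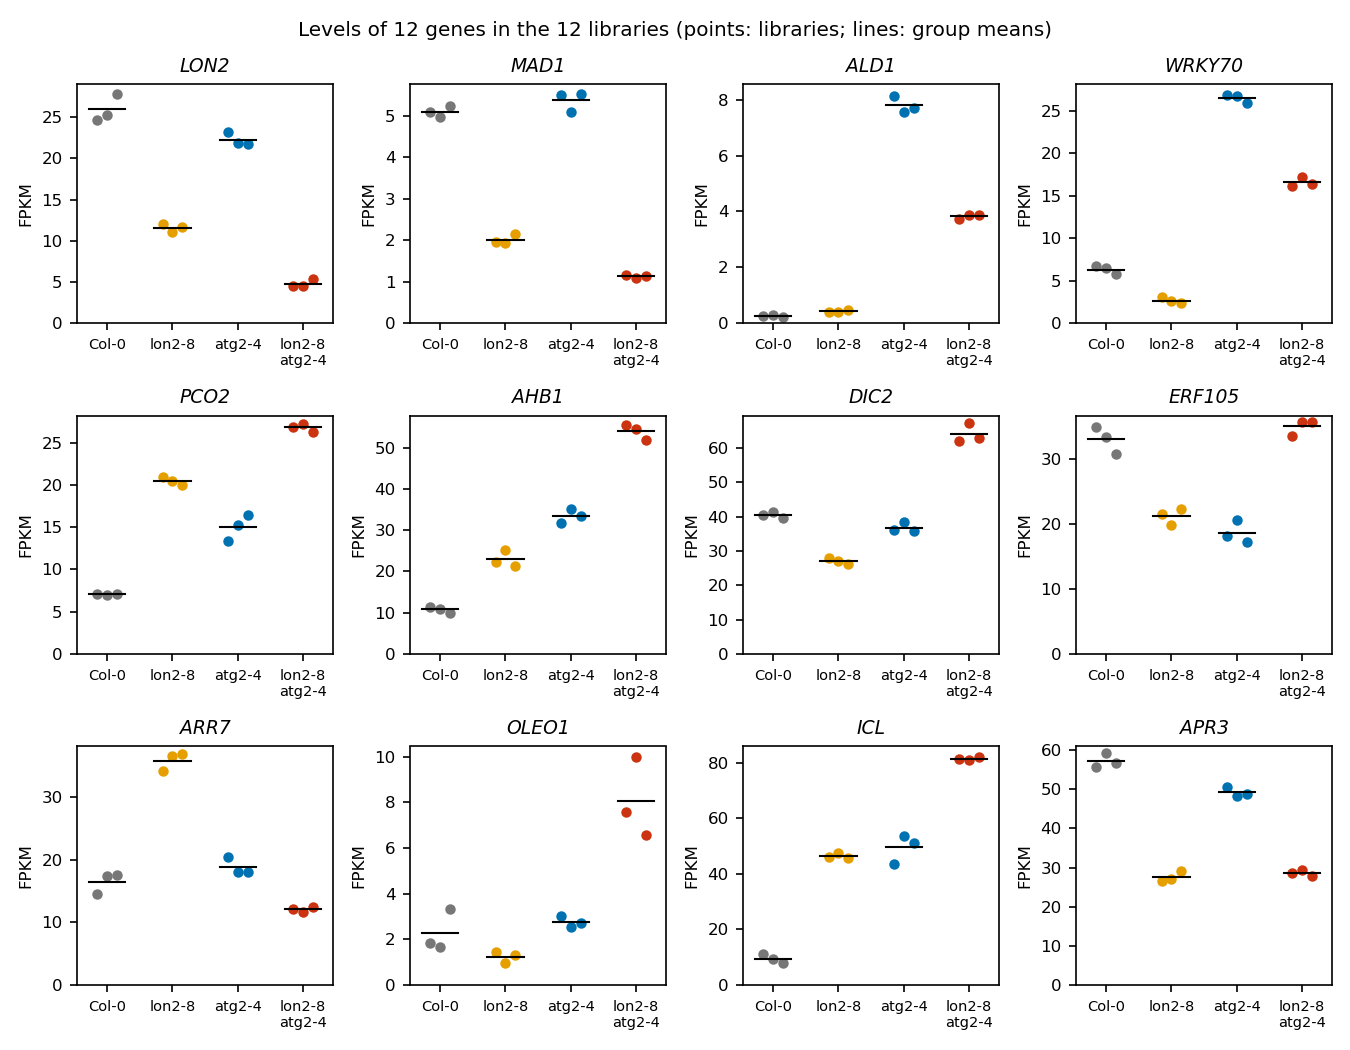
FPKM of 12 genes in each of the 12 libraries (points) with the mean of each genotype (black lines); each panel starts at 0. LON2 and MAD1 are lowest in the double mutant, DIC2 is highest there and lowest in lon2-8, and ARR7 is lowest there and highest in lon2-8. ERF105 is low in both single mutants.

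Genes that respond to low oxygen rose together. Of 21 tested members of the core hypoxia list, 12 rose and 0 fell, with a median of 0.30. PCO2 and PCO1 encode plant cysteine oxidases, the enzymes that sense oxygen by marking ERF-VII transcription factors for breakdown. PCO2 had 13.4, 15.3 and 16.5 FPKM in atg2-4 and 26.9, 27.2 and 26.3 in the double mutant (0.80 ± 0.058, adjusted p = 6.89e-06). PCO1 had 9.95, 13.4 and 12.3 against 22, 22.1 and 20.2 FPKM (0.81 ± 0.088, adjusted p = 1.43e-04). Neither gene overlapped between the groups. AHB1, the stress haemoglobin gene, had 31.8, 35.2 and 33.5 against 55.5, 54.4 and 51.9 FPKM (0.67 ± 0.064, adjusted p = 5.21e-05), and the ethylene receptor gene ETR2 rose by 0.40 (adjusted p = 5.55e-04). In the Col-0 background 13 members were higher and 1 lower with lon2-8. The rises there were larger for PCO2 (1.41) and PCO1 (1.63), and the interaction was significant for both (−0.61, adjusted p = 3.34e-04, and −0.82, adjusted p = 8.81e-04). The double mutant had the highest mean list level of the 4 genotypes, with libraries 0.68 to 0.74 log2 above the Col-0 mean, against 0.42 to 0.43 in lon2-8 and 0.30 to 0.43 in atg2-4. Without double mutant library 1, 7 members rose, and up to 10 without another of the 6 libraries.

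Genes of sugar starvation and branched-chain amino acid breakdown also rose. Of 31 tested members, 16 rose and 1 fell, with a median of 0.20, and 15 to 16 rose without any 1 library. DIN10, a raffinose synthase family gene induced in the dark, had 253, 247 and 241 FPKM in atg2-4 and 353, 354 and 350 in the double mutant (0.51 ± 0.027, adjusted p = 4.39e-07). ERD5, the proline dehydrogenase gene, had 58.1, 59.4 and 59.6 against 79.8, 79.0 and 84.9 FPKM (0.45 ± 0.036, adjusted p = 1.09e-05). EXO and EXL2, of the EXORDIUM family, which is linked to growth under carbon shortage, rose by 0.53 each. The groups were apart for all of these genes. The lon2-8 effect in Col-0 had 17 members higher and 2 lower, with a median of 0.21, and the DIN10 change there was 0.54 (interaction −0.03 ± 0.038, adjusted p = 0.663). Among the 24 senescence genes tested, 6 rose and 2 fell (33.3%, where 8.88% of all genes passed). SEN1, also known as a dark-induced gene, had 37.3, 33.2 and 32.6 FPKM against 61.3, 71.8 and 67.6 (0.94 ± 0.062, adjusted p = 3.3e-06), and SEN4, a cell wall xyloglucan enzyme gene, rose by 0.55 (adjusted p = 4.24e-05).

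Photorespiration genes rose by small amounts. Of 22 tested members, 13 rose and 0 fell, with a median of 0.16, and 10 to 13 rose without any 1 library. CAT2, the catalase that removes peroxisomal hydrogen peroxide in leaves, had 235, 228 and 220 FPKM in atg2-4 and 279, 280 and 284 in the double mutant (0.30 ± 0.030, adjusted p = 6.78e-05). It stayed below Col-0 (363 ± 8.0 FPKM, SD, n = 3) and lon2-8 (515 ± 1.8). The peroxisomal aminotransferase genes SGAT and GGAT1 rose by 0.27 and 0.24 (adjusted p = 1.2e-04 and 3.85e-04), and the glycolate oxidase gene GOX1 by 0.24 (adjusted p = 8.05e-04). The mean level of the list was below Col-0 in every atg2-4 library and nearer to it in the double mutant. Of 50 photosynthesis genes 10 rose and 3 fell. Among them the chloroplast GAPDH gene GAPB rose by 0.23 and the carbonic anhydrase gene CA1 by 0.25. RCA, the Rubisco activase gene, had 1549, 1566 and 1500 FPKM in atg2-4 and 1756, 1766 and 1811 in the double mutant (0.21 ± 0.031, adjusted p = 0.00145). Near-identical copies, whose reads may be divided between them, are the Rubisco small subunit genes RBCS2B and RBCS3B, which rose by 0.24 and 0.23. LHCB1.1, a light-harvesting gene with close copies, fell from 1866, 1949 and 1824 to 1562, 1613 and 1616 FPKM (−0.24 ± 0.036, adjusted p = 0.00173). Of the 8 leaf markers, 4 rose and 2 fell.

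The most abundant called genes included cell wall genes that went different ways. EXT4, an extensin gene, had 2274, 2806 and 2556 FPKM in atg2-4 and 3262, 3224 and 2932 in the double mutant (0.31 ± 0.067, adjusted p = 0.0137), a call lost without double mutant library 1 or 2 (adjusted p up to 0.0555). AT3G54580, another extensin-like gene, fell from 1202, 1107 and 1091 to 888, 894 and 784 FPKM (−0.41 ± 0.077, adjusted p = 0.00602). THI1, which makes the thiazole part of vitamin B1, rose by 0.20 (adjusted p = 0.00286), and the dehydration response gene ERD15 by 0.21 (adjusted p = 0.00806). Extensin repeats are shared among many genes, so how fragments were divided among them is uncertain.

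Many genes induced within minutes by touch, wounding or elicitors rose in this background, while with lon2-8 in Col-0 more of them fell than rose. Of 29 tested members of the rapid stress list of ERF, ZAT and touch genes, 15 rose and 1 fell, with a median of 0.31. DIC2, a mitochondrial dicarboxylate carrier that is quickly induced by stress, had 36.0, 38.4 and 35.7 FPKM in atg2-4 and 62.0, 67.4 and 62.8 in the double mutant (0.79 ± 0.042, adjusted p = 4.39e-07). ERF105, a cold and stress response factor, had 18.1, 20.6 and 17.3 against 33.6, 35.8 and 35.8 FPKM (0.88 ± 0.066, adjusted p = 9.28e-06). ZAT10, a zinc finger repressor, had 28, 25.7 and 26.1 against 41.4, 39.7 and 39.6 FPKM (0.58 ± 0.054, adjusted p = 4.4e-05). TCH4, a touch-induced cell wall enzyme gene, rose by 0.56 (adjusted p = 9.28e-06). The groups did not overlap for any of these 4 genes. In the Col-0 background lon2-8 had 3 members higher and 13 lower, with a median of −0.30. DIC2 fell there by 0.56, ERF105 by 0.61 and ZAT10 by 0.51, while TCH4 did not change (−0.01, adjusted p = 0.905). The mean of ERF105 in the double mutant, 35.1 FPKM, was near its 33.0 in Col-0. The interaction was positive and significant for 20 of the 29 members and negative for 1, where 7.1% and 6.08% of all genes had such calls. It was 1.35 ± 0.059 for DIC2 (adjusted p = 8.26e-08), 1.49 ± 0.093 for ERF105 (adjusted p = 9.63e-07) and 1.06 ± 0.060 for ERF104, a factor phosphorylated in the flagellin response (adjusted p = 6.57e-07). Many of these genes are known to respond to handling, and no harvest order is given.

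Cytokinin response genes showed the reverse. Type-A response regulators are induced by cytokinin and dampen its signal. Of 14 tested members of the list, which also holds cytokinin response factors and oxidases, 0 rose and 7 fell, with a median of −0.20. ARR7 had 20.5, 18.1 and 18.1 FPKM in atg2-4 and 12.2, 11.7 and 12.4 in the double mutant (−0.60 ± 0.068, adjusted p = 1.92e-04). ARR6 had 13.9, 13.4 and 13.6 against 9.98, 10.4 and 10.6 FPKM (−0.37 ± 0.046, adjusted p = 4.0e-04). CRF2, a cytokinin response factor, and ARR9 fell by 0.38 and 0.26. The groups were apart for these 4 genes. In Col-0, lon2-8 had 11 members higher and 0 lower, with ARR7 up by 1.08 to 35.8 ± 1.5 FPKM. The interaction was negative and significant for 10 of the 14, and was −1.68 ± 0.096 for ARR7 (adjusted p = 6.59e-07). Without atg2-4 library 3 or double mutant library 2, 4 members fell.

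**Figure D3:**
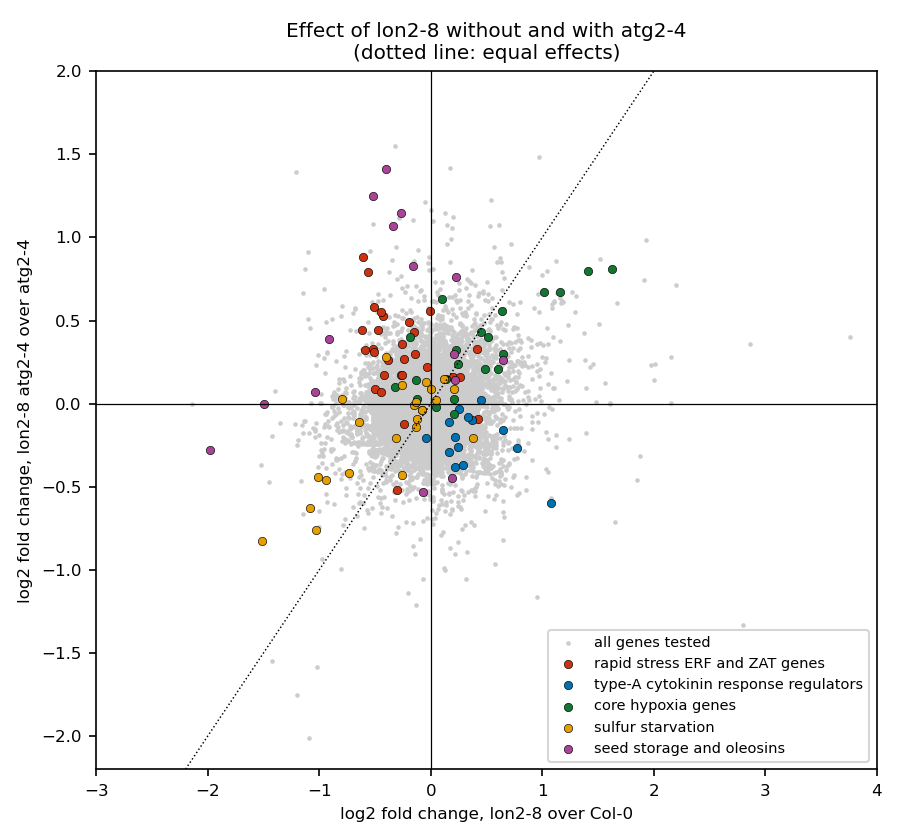
Each grey point is a gene tested, with the log2 fold change of lon2-8 over Col-0 on the x axis and of the double mutant over atg2-4 on the y axis; coloured points are members of 5 lists and the dotted line marks equal effects. Most rapid stress genes (red) lie upper left and most cytokinin genes (blue) lower right, while hypoxia genes (green) lie mainly upper right and sulfur genes (orange) include a group at lower left.

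Of 29 tested members of the salicylic acid and immune list, 0 rose and 15 fell, with a median of −0.25. The number that fell was 9 without double mutant library 3 and up to 12 without another of the 6 libraries. ALD1, which makes the pipecolic acid signal of systemic resistance, had 8.15, 7.55 and 7.72 FPKM in atg2-4 and 3.74, 3.88 and 3.86 in the double mutant (−0.87 ± 0.068, adjusted p = 1.04e-05). WRKY70, a transcription factor gene, had 26.9, 26.8 and 25.9 against 16.2, 17.2 and 16.4 FPKM (−0.64 ± 0.070, adjusted p = 1.38e-04). SARD1, a regulator of salicylic acid synthesis, fell by 0.53 (adjusted p = 7.69e-04), and ACD6, an ankyrin protein gene that promotes salicylic acid responses, by 0.47 (adjusted p = 0.00343). The groups were apart for all of these genes. The double mutant means still lay above those of Col-0, where ALD1 was at 0.257 FPKM and WRKY70 at 6.3. The list mean was 1.74 to 1.8 log2 above Col-0 in atg2-4 and 1.49 to 1.51 in the double mutant. In the Col-0 background 3 members were higher and 7 lower with lon2-8. Jasmonate genes numbered 23 tested, of which 0 rose and 4 fell (2 without atg2-4 library 1 or 3 or double mutant library 1 or 2), AOC2 of jasmonate synthesis by 0.34 (adjusted p = 0.00145).

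Indolic defence genes did not follow the salicylic acid genes. Of 8 tested camalexin genes 3 rose and 0 fell. CYP71A12, which acts in the synthesis of indolic defence compounds, had 109, 103 and 102 FPKM in atg2-4 and 164, 166 and 149 in the double mutant (0.60 ± 0.073, adjusted p = 2.95e-04), against 3.15 in Col-0 and 12.3 in lon2-8. CYP71B15, the last enzyme of camalexin synthesis, rose by 0.49 (adjusted p = 0.0113). Among 26 tested genes of the indolic glucosinolate list 5 rose and 2 fell (26.9%, where 8.88% of all genes passed). That list also holds genes of glucosinolate breakdown, with TGG2, given above, among the rises and NSP3 among the falls. The methyltransferase gene IGMT1 had 26, 26.6 and 25 against 43.8, 40.1 and 40.9 FPKM (0.67 ± 0.053, adjusted p = 1.1e-05), and CYP81F2, which hydroxylates indolic glucosinolates, rose by 0.43 (adjusted p = 1.75e-04). NSP3, a specifier protein that steers glucosinolate breakdown to nitriles, fell from 12.7, 12.4 and 13.0 to 7.43, 6.76 and 7.40 FPKM (−0.74 ± 0.065, adjusted p = 2.62e-05). Among 22 aliphatic glucosinolate genes 2 rose and 1 fell (13.6%, where 8.88% of all genes passed).

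**Figure D4:**
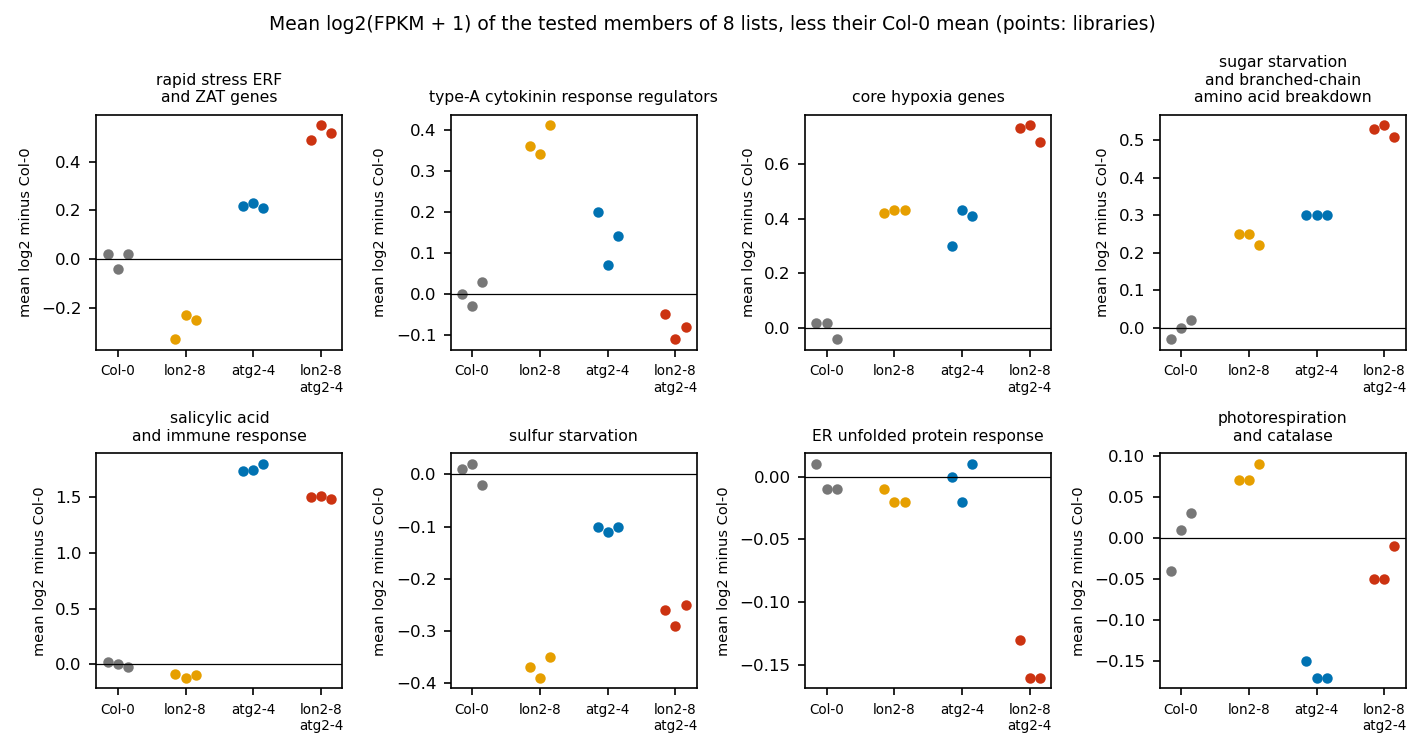
Mean log2(FPKM + 1) of the tested members of 8 lists, less their mean in Col-0, in each library (points) of the 4 genotypes; the y axes differ between panels. The immune list is at 1.74 to 1.8 in atg2-4 and 1.49 to 1.51 in the double mutant, and the rapid stress list is lowest in lon2-8 and highest in the double mutant.

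Peroxisomes house β-oxidation and part of the glyoxylate cycle. Of 28 tested genes on the list of these pathways, which also holds PCK1, 5 rose and 0 fell (17.9%, where 8.88% of all genes passed), with a median of 0.00. Without atg2-4 library 2 or 3 or double mutant library 1 or 2, 3 rose. ICL, the isocitrate lyase of the glyoxylate cycle, had 43.7, 53.8 and 51.3 FPKM in atg2-4 and 81.3, 81.0 and 82.2 in the double mutant (0.71 ± 0.091, adjusted p = 4.84e-04). Its level was 9.39 ± 1.5 FPKM in Col-0 and 46.4 ± 0.90 in lon2-8 (SD, n = 3), so each mutation went with a higher level. The rise with lon2-8 was 2.2 in Col-0 and smaller with atg2-4 (interaction −1.49, adjusted p = 1.08e-05). PCK1, the carboxykinase that leads from this cycle to sugar, rose by 0.32 (adjusted p = 0.00173), and the peroxisomal malate dehydrogenase gene PMDH2 by 0.19 (adjusted p = 0.00277). In Col-0 the same list had 14 members higher and 0 lower with lon2-8. Of 22 peroxins, the proteins that build peroxisomes, 2 passed (9.09%, near the 8.88% of all genes). They were the peroxisome division genes PEX11D (0.19) and PEX11E (0.17). PEX11D lost its call without any 1 of the 6 libraries (adjusted p up to 0.0909) and PEX11E without 4 of them (adjusted p up to 0.11). LON1, the related protease of mitochondria, had 7.45, 6.85 and 6.74 FPKM against 8.48, 7.85 and 7.93 (0.18 ± 0.052, adjusted p = 0.048). That call was lost without 5 of the 6 single libraries (adjusted p up to 0.155).

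Of 46 autophagy genes tested, 2 rose and 1 fell (6.52%, where 8.88% of all genes passed), with a median of −0.02. NBR1, a selective autophagy receptor gene, had 120, 126 and 123 FPKM against 136, 130 and 132 (0.11 ± 0.030, adjusted p = 0.0454), a call lost without any 1 library (adjusted p up to 0.147). ATG8F rose by 0.12 and ATG8H fell by 0.25, calls that were each lost without 4 of the 6 libraries (adjusted p up to 0.135 and 0.0944). Both encode proteins that coat the autophagosome. Of 41 proteasome genes 0 rose and 1 fell (2.44%). Of 21 tested genes of the ER unfolded protein response, 0 rose and 8 fell, with a median of −0.16, and 7 to 9 fell without any 1 library. CNX1, a calnexin, had 97.2, 91.8 and 95.4 FPKM in atg2-4 and 81.4, 80.0 and 78.0 in the double mutant (−0.25 ± 0.032, adjusted p = 5.47e-04). BIP1, an Hsp70 chaperone gene of the ER with a near-identical copy, fell by 0.26 (adjusted p = 4.92e-04) and the calreticulin gene CRT2 by 0.25 (adjusted p = 0.00343). In Col-0 the list had 1 member higher and 4 lower with lon2-8, together near the 23.1% of all genes called there. Among 19 heat shock genes 1 rose and 1 fell (10.5%), and among 24 cytosolic ribosomal protein genes 0 rose and 3 fell (12.5%), where 8.88% of all genes passed.

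Among sulfur starvation genes more fell than rose, as in the Col-0 background. Of 24 tested members 2 rose and 7 fell, with a median of −0.07. APR3, a sulfate-reducing enzyme gene, had 50.5, 48.4 and 48.7 FPKM in atg2-4 and 28.6, 29.4 and 27.8 in the double mutant (−0.76 ± 0.042, adjusted p = 5e-07). LSU2, which responds to low sulfur, had 12.1, 11.3 and 11.0 against 5.73, 6.12 and 6.20 FPKM (−0.83 ± 0.092, adjusted p = 1.57e-04), and SDI2, a repressor of glucosinolate synthesis under sulfur shortage, fell by 0.63 (adjusted p = 1.52e-04). The groups were apart for each gene. In Col-0, lon2-8 had 3 members higher and 11 lower, with larger falls for APR3 (−1.03) and LSU2 (−1.51), and both interactions were significant (0.27, adjusted p = 0.0102, and 0.68, adjusted p = 0.00421). Nitrate genes were divided. Of 26 tested, 10 rose and 6 fell, and 6 rose without double mutant library 2 or 3. The nitrate reductase genes NIA1 and NIA2 rose, NIA1 from 218, 209 and 211 to 293, 287 and 299 FPKM (0.46 ± 0.029, adjusted p = 1.87e-06) and NIA2 by 0.32 (adjusted p = 4.26e-05). The repressor genes HHO2 and HHO3, of the nitrate and phosphate response, fell by 0.50 and 0.47, HHO2 from 13.6, 14.1 and 13.8 to 9.35, 9.77 and 9.48 FPKM.

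More clock genes fell than rose, by small amounts. Of 28 clock genes tested 3 rose and 8 fell, with a median of −0.11. GI, an evening gene that links the clock to flowering, had 5.09, 5.02 and 5.12 FPKM against 3.49, 3.42 and 3.65 (−0.43 ± 0.050, adjusted p = 2.19e-04), and PIF4, a growth-promoting factor, fell by 0.48 (adjusted p = 5.29e-04). COL1, a CONSTANS-like gene, rose from 20.3, 20.1 and 21.1 to 28.2, 28.4 and 28 FPKM (0.44 ± 0.036, adjusted p = 1.73e-05), and RVE2, a MYB gene related to CCA1, by 0.33. In Col-0 lon2-8 had 0 clock genes higher and 15 lower, with COL1 down by 0.40 (interaction 0.84, adjusted p = 9.63e-07). The time of harvest is not given. Iron deficiency genes numbered 35 tested, of which 0 rose and 3 fell (8.57%, near the 8.88% of all genes; list median −0.03), beside 8 higher and 18 lower with lon2-8 in Col-0. The transcription factor gene BHLH101 had 26.4, 28 and 27.6 FPKM against 18.7, 20.0 and 18.1 (−0.51 ± 0.071, adjusted p = 8.91e-04), and the iron transporter gene OPT3 fell by 0.25 (adjusted p = 0.00127). Among 32 oxidative stress genes 4 rose and 1 fell (15.6%, where 8.88% of all genes passed), beside 21 higher and 2 lower in Col-0. The 4 became 1 without double mutant library 2 and 2 without double mutant library 1 or atg2-4 library 3.

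The remaining lists moved both ways or held few called members. Abscisic acid genes had 7 of 28 higher and 4 lower (39.3%, where 8.88% of all genes were called). Among them was the cold-regulated gene COR413-PM1 with a fall of 0.36 (adjusted p = 1.83e-04). The 7 became 2 without atg2-4 library 1 or double mutant library 2 or 3, 3 without double mutant library 1 and 4 without atg2-4 library 2. Root genes had 2 of 23 higher and 4 lower, where Col-0 had 11 higher and 1 lower. The 4 became 0 without atg2-4 library 3 or double mutant library 3 and 1 without double mutant library 2, while voom on fragments gave 9. The root list had a median of −0.15, with 18 of 23 members negative. Against this direction, the root β-glucosidase gene PYK10 was at 644, 647 and 665 FPKM in atg2-4 and 735, 719 and 717 in the double mutant (0.15 ± 0.031, adjusted p = 0.00992). Of the 4 called members with the smallest adjusted p, PYK10 and 1 other (0.33) rose. The other 2 fell, by 0.41 and 0.43. PYK10 kept its call whichever of the 6 libraries was left out. The other rise was lost without 4 of them (adjusted p up to 0.0911), and the falls of 0.41 and 0.43 without 2 and 5. Auxin genes had 2 of 35 higher and 1 lower, flavonoid genes 1 of 19 and 3, phosphate starvation genes 1 of 18 and 2, early light-induced genes 1 of 7 and 0, mitochondrial retrograde genes 2 of 19 and 0, and mitosis genes 0 of 29 and 2, of which 1 was MAD1. The other was TSO2, a ribonucleotide reductase gene, with a fall of 0.27 (adjusted p = 2.07e-04). In the lists from auxin to mitosis 6.9% to 21.1% of members were called, where 8.88% of all genes were. Auxin genes, at 8.57%, and mitochondrial retrograde genes, at 10.5%, were near that share.

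**Figure D5:**
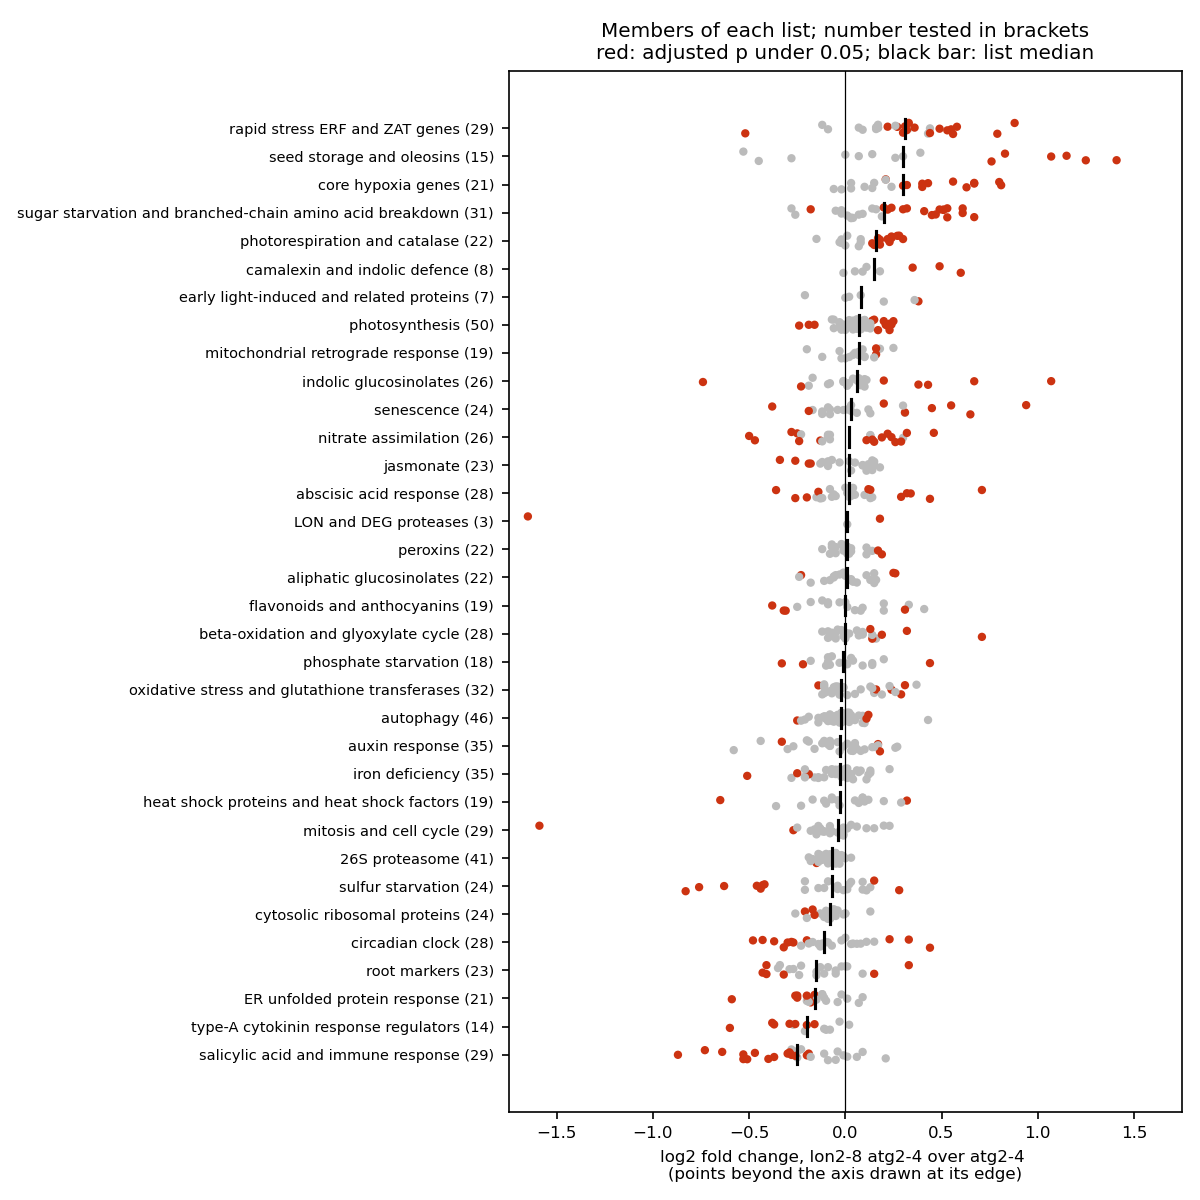
Log2 fold change of the double mutant over atg2-4 for each tested member of 34 lists (points, red where the adjusted p was under 0.05), ordered by the list median (black bars). The rapid stress, seed and hypoxia lists have the highest medians, at 0.31, 0.30 and 0.30, and the salicylic acid list the lowest at −0.25.

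The effect of lon2-8 was then set beside that in Col-0, which shares no library with it. In Col-0 background 4779 of 20662 genes were called (23.1%), 1872 higher (9.06%) and 2907 lower (14.1%), and 115 passed 2-fold (0.557%). The calls had 895 genes in common, or 48.8% of those called with atg2-4 and 18.7% of those called without it. Of these, 632 went the same way, 362 higher and 270 lower in both, and 263 went opposite ways, 122 higher with atg2-4 and lower without it and 141 the reverse. Across all genes the 2 log2 fold changes correlated at r = 0.14 (Spearman 0.11), a description over genes, which are not independent. The test of the difference itself, the interaction, called 2723 genes (13.2%), 1466 positive and 1257 negative, with 144 past 2-fold (0.697%). Centring the libraries changed that division to 1140 positive and 1547 negative. Of the 1835 genes called with atg2-4, 855 (46.6%) also had an interaction, and the choice of genes by one of its parts favours such calls. The strongest such genes beside those above were AT1G73120, EXPA1, AT3G46600 and AT1G15125. AT1G73120, annotated as an F-box protein gene, had a mean of 3.22 FPKM in atg2-4, 4.54 in the double mutant, 3.6 in Col-0 and 61.2 in lon2-8 (interaction −3.36 ± 0.13, adjusted p = 2.81e-08). Its small rise with atg2-4 was lost without double mutant library 1 or 2 (adjusted p up to 0.0578). EXPA1, a cell wall loosening expansin gene, fell by 0.18 with atg2-4 and was 0.60 higher with lon2-8 in Col-0.

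Promoters of the called genes were scanned for short motifs from 250 bases before to 50 bases after the annotated start, on both strands, in the RefSeq TAIR10.1 annotation. The ABRE core (ACGTGTC or ACGTGGC) was in 12.7% of 867 rising genes, 6.96% of 877 falling genes and 8.78% of all 19130 protein-coding genes tested. The overlapping G-box (CACGTG) was in 11.2%, 7.75% and 8.66%, and the site II element (TGGGCC or TGGGCT) in 16.6%, 20.0% and 24.9%. The W-box (TTGACC or TTGACT) was in 34.4%, 36.0% and 33.2%, the TGACG element in 25.5%, 24.3% and 23.6%, and the GCC-box (GCCGCC) in 2.88%, 1.48% and 2.67%. The evening element was in 2.77%, 3.65% and 3.00%, the heat shock element (GAANNTTC) in 11.6%, 13.0% and 11.5%, the telobox in 3.81%, 5.13% and 5.38%, the iron G-box in 0.115%, 0.456% and 0.528%, and the unfolded protein element in 3.00%, 2.28% and 1.89%. These shares are descriptions without a test, and a match is not a site of binding.

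The authors' deposited table for the same comparison lists 2685 of 24691 genes with a false discovery rate under 0.05, 1437 higher, 1235 lower and 13 without a fold change. It shares 1628 genes with the 1835 called here, which is 88.7% of the latter and 60.6% of the former, and all 1628 have the same sign in the authors' deposited table. The test behind that table is not stated.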

How the data were processed

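Expression values were deposited by the authors as FPKM for each gene in 12 libraries, 3 per genotype, described in the series design as biological replicates. The submitters' processing notes list STAR 2.5.1a, Salmon 0.8.2, featureCounts 1.4.6-p5, Subread, bcl2fastq, limma and edgeR, without saying what each did. Not given in the sources used here are the genome build and whether strand was used. The deposited table of the same comparison holds, per the file headers, a score, a p-value, a false discovery rate and a log2 fold change per gene. Its log2 fold change equalled the log2 ratio of mean FPKM within 1.1e-14, and was only set beside the results.

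FPKM values of all 26093 genes were whole multiples of 1 step within 0.01 fragments, which gave the fragments per library. A gene had to reach 1 FPKM in 3 libraries or more, which 20662 did. Their log2(FPKM + 1) was fitted with limma 3.58.1 (R 4.3.3) in 1 model of 12 libraries, with a trended prior and a two-sided threshold of 0.05 after Benjamini-Hochberg adjustment. The interaction is the double mutant minus atg2-4, less lon2-8 minus Col-0. On simulated data, with the same assumed dispersion for every gene, the comparison recovered 56.1% of changes of 0.5 log2, 92.3% of 1 log2 and 98.5% of 1.5 log2. Smaller changes were not simulated. As the upper quartile of the called changes was 0.395, these rates do not cover most of them. Precision is limited by 3 libraries per group.

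The members and 34 gene lists, with 840 of 926 genes tested, were chosen with earlier results of these data known, so their counts are descriptions. Named genes were LON2 and ATG2, the 15 largest rises and 15 largest falls among called genes without overlap between the groups, the 10 most abundant called genes, up to 4 called members per list by adjusted p, and the 10 strongest interactions among called genes; a selection of these is given. Neighbours of LON2 were taken 5 on each side. Symbols, gene order and promoters came from RefSeq TAIR10.1, to which 26093 of 26093 identifiers matched. Work outside R used Python 3.11.15, pandas 2.3.3 and matplotlib 3.10.9. Other pseudocounts (0.5, 0.1), filters, a median centring, an untrended prior, a replicate block, limma voom on the recovered fragments, the 6 libraries alone and each library left out were tried.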

Additional observations from a re-analysis of the deposited data

Results flagged for a closer look

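For the genes below, all named in the report, lon2-8 acted differently with atg2-4 than in Col-0 by limma's interaction test, with an adjusted p under 0.05. Each value is the log2 change with atg2-4 less the log2 change in Col-0. Because most genes were named for their change with atg2-4, which is a part of the interaction, the choice favours such calls. Some genes were near 0 in both Col-0 and lon2-8: AT4G33720 (0.154 and 0.248 FPKM), ALD1 (0.257 and 0.415), AT2G37805 (0.239 and 0.438) and AT5G46950 (0.0324 and 0.296). On this scale such genes can change little in Col-0, so their interaction largely repeats the change with atg2-4.

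Among seed-stage genes the interaction was 1.81 for PER1, 1.77 for OLEO1, 1.42 for OLEO2, 1.41 for EM6, 1.26 for TIP3;1 and 1.08 for AT3G17520. Among rapid stress genes it was 1.49 for ERF105, 1.35 for DIC2, 1.09 for ZAT10, 1.06 for ERF104 and 0.57 for TCH4. Among cytokinin genes it was −1.68 for ARR7, −0.66 for ARR6, −0.61 for CRF2 and −0.50 for ARR9. Hypoxia genes had −0.82 for PCO1, −0.61 for PCO2 and −0.35 for AHB1. Immune genes had −1.10 for AT4G33720, −1.04 for ALD1, −0.33 for SARD1, 0.36 for WRKY70 and 0.98 for ACD6. Indolic defence and glucosinolate breakdown genes had −1.07 for CYP71A12, −0.45 for NSP3 and 0.46 for TGG2. The jasmonate gene AOC2 had −0.71.

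Peroxisome, protease and autophagy genes had −1.49 for ICL, −0.92 for LON2, −0.78 for ATG8H, −0.20 for CAT2, 0.21 for GOX1, 0.24 for GGAT1 and 0.25 for LON1. Metabolic and mineral nutrition genes had −0.32 for NIA1, −0.31 for HHO2, 0.27 for APR3, 0.33 for NIA2, 0.45 for SDI2, 0.47 for OPT3, 0.68 for LSU2 and 0.69 for THA1. The sugar, senescence and ER genes EXO, SEN1 and CNX1 had 0.43, 0.37 and −0.15. Photosynthesis and clock genes had −0.17 for LHCB1.1, 0.22 for RCA, 0.59 for RBCS2B, 0.63 for RVE2 and 0.84 for COL1.

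Cell wall genes had 2.6 for AT5G59170, 0.92 for PRX52, −0.37 for EXT4, −0.78 for EXPA1, −0.79 for AT3G54580 and −1.22 for AT5G46950. The remaining genes were AT1G64795 with −4.13, AT1G73120 with −3.36, AT2G37805 with −1.12, MAD1 with −0.57, PYK10 with −0.48, COR413-PM1 with −0.26, AT3G46600 with 0.66, AT1G15125 with 0.88 and AT3G06355 with 1.27.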

How the results depend on the processing

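Under every alternative the count of genes called with atg2-4 kept within 1.5 times, other than when single libraries of the 2 groups compared were left out, which gave 1064 to 1637 genes, 549 to 793 higher, 467 to 844 lower and 19 to 31 past 2-fold. Without single libraries of Col-0 or lon2-8, which only share in the estimate of spread, 1619 to 1856 genes were called. The number past 2-fold was 35 with a pseudocount of 0.5, 49 with 0.1 and 68 with voom on fragments, which called 1178 higher and 1375 lower. The interaction count was 2094 to 2753 without single libraries of the 4 genotypes, with 1127 to 1463 positive, 967 to 1290 negative and 132 to 166 past 2-fold, a number that was 287 with a pseudocount of 0.1 and 332 with voom. Median centring moved the division of directions, as given in the report. Of 94 called genes named, 82 kept the call under all alternatives, 12 lost it under at least 1, and 0 reversed. The number lost was 7 with the 6 libraries alone and 6 with an untrended prior. The named genes are a selection, mostly of large changes or small adjusted p, so these numbers do not describe the other calls. Of all 1835 called genes, 1006 to 1316 were also called when 1 of the 6 libraries compared was left out.

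Library numbers did not pair the samples: deviations of same-numbered libraries correlated at −0.057, 0.03 and −0.011. With the replicate block 1639 genes were called, 810 higher and 829 lower, of which 1542 were shared, and 4 named genes lost their call. The small counts of higher autophagy, peroxin and mitochondrial retrograde genes and of lower senescence and phosphate starvation genes, 2 each, dropped to 0 without some single libraries. Genes at a few FPKM, such as the seed genes, rest on few fragments.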
